A study of Mus musculus with 6 samples.

Results

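The 9 genes described here encode the transcription factors that steer activated CD4+ T cells into helper fates: *Tbx21*, *Eomes* and *Runx3* for Th1 cells, *Gata3* for Th2 cells, *Rora*, *Maf* and *Ahr* for Th17 cells, *Bcl6* for follicular helper cells, and *Irf4*, which several fates share. They were taken by symbol from the 23420 genes of the table, all 9 were found, and 8 of them were among the 10607 genes with enough counts to be tested (*Eomes* was too sparse). RNAseq of polyadenylated RNA was done on 6 libraries of splenic CD4+CD62L+ T cells, magnetically purified from BALB/c mice aged 12 wks and stimulated on plate-bound antibodies to CD3 and CD28. Lentiviral shRNA was added after 24 h, medium without polarizing cytokines was fed 24 h later, and cells were harvested 48 h after that. One group received shRNA against *Dyrk1a* (2 libraries), one received control shRNA and 3.7 uM harmine (2 libraries), and one received control shRNA alone (2 libraries). The labels name IL-2 in that medium for all 3 groups, whereas the study's methods name none for these cells. Harmine is a small molecule inhibitor of DYRK kinases, and the study names monoamine oxidase A and CDC-like kinases among its other targets. Stimulation and virus were common to all 3 groups, and no library of unstimulated or untransduced cells was analysed here. The study lists several hairpins of each kind. Which of them was used in which library, whether transduced cells were selected, and whether replicates came from separate mice or cultures are not given in the sources used here, so the p-values measure only the spread between these libraries, which may be technical.

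As background, a naive CD4+ T cell that meets its antigen turns on a small set of transcription factors, and the cytokines around it decide which of them dominates. T-bet (*Tbx21*) drives interferon gamma and opposes GATA3, GATA3 drives interleukins 4, 5 and 13, ROR alpha and c-MAF support the Th17 fate, and BCL6 drives the follicular helper programme while holding the others back. These factors restrain one another, so that their relative levels are commonly read as a sign of which fate a culture leans towards.

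The libraries held 1096345 to 3747648 counts, and both controls (1743428 and 1096345) were shallower than any treated library. The control replicates also lay farther apart from each other than the replicates of either treatment: the median gap between replicates over all tested genes, in absolute log2 units, was 0.215 for *Dyrk1a* shRNA, 0.206 for harmine and 0.361 for control. Levels are given as CPM, read counts scaled to a common library total after TMM adjustment. *Dyrk1a* itself was at 60.2 and 61.9 CPM in the libraries labelled *Dyrk1a* shRNA, against 74.8 and 77.6 CPM with harmine and 58.4 and 82.7 CPM in control. The targeted transcript therefore lay within the control range in the knockdown libraries (log2 fold change -0.19, 95% interval -0.64 to 0.25, edgeR adjusted p = 0.835), and every statement on *Dyrk1a* shRNA below refers to libraries by that label. The CD4 T cell markers summed to 2621 to 2689 CPM with *Dyrk1a* shRNA, 2788 to 2923 CPM with harmine and 2796 to 2826 CPM in control, with none of 8 at 0 in any library, while markers of B cells summed to at most 40.4 CPM and those of CD8 T and NK cells to at most 56.5 CPM. Myeloid markers summed to 147 to 181 CPM with *Dyrk1a* shRNA, 140 to 153 CPM with harmine and 143 to 269 CPM in control. Most of this sum came from *Cst3* (235 CPM in the first control, the highest library). *Lyz2* was at 7.60 to 25.7 CPM and *Cd68* at 2.51 to 5.75 CPM across the 6 libraries. The defining marker *Csf1r* had at most 1 read in any library.

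Across the 6 libraries the 9 factors covered a wide range of levels, from *Irf4*, among the most abundant transcripts of these cells, to *Eomes*, near the limit of detection. Divided by exonic length, *Irf4* averaged 162 CPM per kb over the 6 libraries (range 111 to 212) and *Runx3* averaged 61.9 CPM per kb (47.9 to 71.0). Then came *Gata3* at 9.43 (7.78 to 11.2), *Maf* at 7.51 (6.51 to 8.71) and *Bcl6* at 3.07 CPM per kb (2.34 to 4.54). *Tbx21* at 1.87 (1.17 to 2.78), *Rora* at 1.80 (1.43 to 2.45), *Ahr* at 0.965 (0.306 to 1.31) and *Eomes* at 0.503 CPM per kb (0.203 to 0.826) closed the order. Each of the first 4 factors stood above the next one in 6 of 6 libraries, *Bcl6* stood above *Tbx21* in 5, *Rora* above *Ahr* in 6 and *Ahr* above *Eomes* in 5. *Tbx21* and *Rora* could not be told apart, since *Tbx21* was the higher one in only 2 libraries, and with the longest transcript as the length their order turned (*Rora* 2.16, *Tbx21* 1.87 CPM per kb). Reverse transcription was primed from the poly(A) tail, and how evenly the reads cover each transcript was not measured, so levels between genes are approximate.

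**Figure D1:**
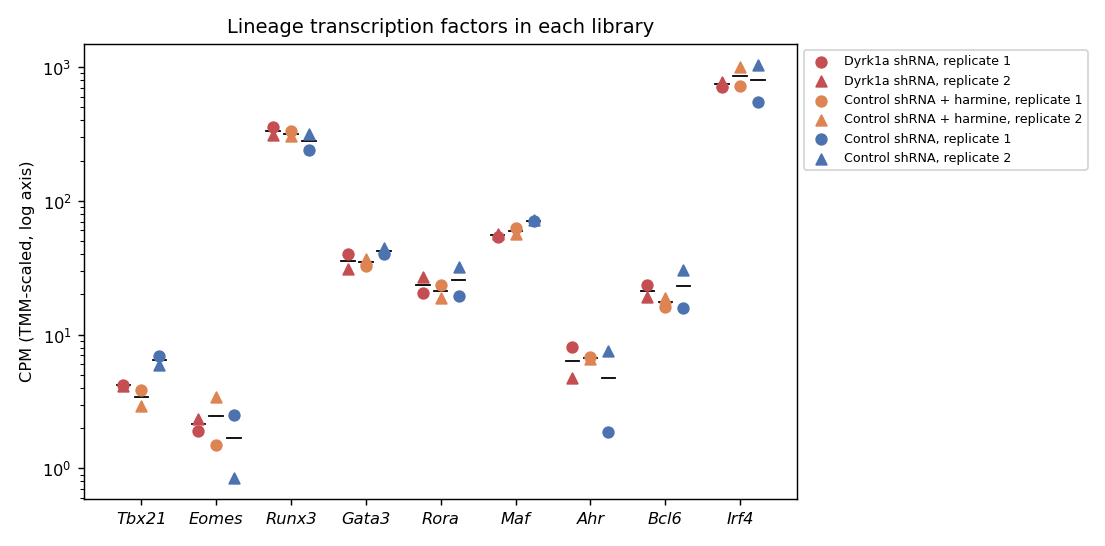
Level of each lineage transcription factor in each of the 6 libraries, in TMM-scaled CPM on a log axis. Circles are replicate 1, triangles replicate 2 and bars group means. *Tbx21*, *Gata3* and *Maf* sit lower in all 4 treated libraries than in both controls, and the widest control gaps are those of *Eomes* and *Ahr* (1.88 against 7.60 CPM for *Ahr*).

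The promoter windows of 3 factors are shown because their genes carry the comparisons below: *Tbx21* and *Gata3*, lower without overlap under both treatments, and *Irf4*, the most abundant factor. DYRK1A is known to phosphorylate NFAT, the factor that carries calcium signals of the T cell receptor into the nucleus, so the NFAT core GGAAA (or TTTCC on the other strand) is in capitals. Sequences are 250 bases long, end just before an annotated transcript start, are written along the gene's own strand and come from RefSeq on GRCm38.p6. They lie at chr11:97115332-97115581 (minus strand) for *Tbx21*, chr2:9878601-9878850 (minus) for *Gata3* and chr13:30748983-30749232 (plus) for *Irf4*. The *Gata3* window thus lies inside the gene interval given below, not upstream of it. The *Irf4* window ends shortly past the gene start given below (30749226).
Tbx21: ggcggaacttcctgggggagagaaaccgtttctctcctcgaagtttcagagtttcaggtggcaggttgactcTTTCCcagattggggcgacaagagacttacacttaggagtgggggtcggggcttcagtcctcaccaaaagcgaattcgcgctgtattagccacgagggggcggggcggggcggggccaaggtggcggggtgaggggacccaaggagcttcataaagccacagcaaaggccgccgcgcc
Gata3: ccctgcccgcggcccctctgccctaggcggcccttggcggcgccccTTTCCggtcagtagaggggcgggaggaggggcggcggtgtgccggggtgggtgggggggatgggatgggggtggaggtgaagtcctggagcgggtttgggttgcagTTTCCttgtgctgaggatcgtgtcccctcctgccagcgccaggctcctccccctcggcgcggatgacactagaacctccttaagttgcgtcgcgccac
Irf4: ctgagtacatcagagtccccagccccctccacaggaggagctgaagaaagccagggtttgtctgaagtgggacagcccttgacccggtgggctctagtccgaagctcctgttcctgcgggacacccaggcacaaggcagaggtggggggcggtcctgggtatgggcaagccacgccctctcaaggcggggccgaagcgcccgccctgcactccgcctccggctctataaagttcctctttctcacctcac

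Promoter windows were found for 7 of the 9 factors (not for *Maf* and *Ahr*), with a second window for *Bcl6* and for *Runx3*. The NFAT core occurred once in the *Tbx21* window, at 2 places in that of *Gata3*, once in that of *Rora*, once and at 3 places in the windows of *Bcl6*, and not in those of *Eomes*, *Irf4* and *Runx3*. It occurred in 55.6% of all 32851 windows, so its presence does not set these genes apart. Searched on both strands in the same way, the core GCGTG of AHR sites was in the windows of *Rora* and *Irf4* (28.2% of all windows), and neither the T-box core GTGTGA (12.3% of all windows) nor the GATA core AGATAA (9.99%) was in any window of these factors. A match describes letters only, and a window without one says nothing about binding of the factor.

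The factors of the Th1 fate gave no common direction. T-bet, the master regulator of Th1 cells (*Tbx21*, chromosome 11, 97098071 to 97115331 on GRCm38), was at 4.21 and 4.13 CPM with *Dyrk1a* shRNA and at 3.87 and 2.90 CPM with harmine, against 6.90 and 5.91 CPM in control. All 4 treated libraries were thus below both controls. These levels rest on few reads, 11 and 14 with *Dyrk1a* shRNA, 13 and 11 with harmine and 11 and 7 in control, and the Poisson interval of the second control (2.38 to 12.2 CPM, 95%, counting error only) covers every treated value. The log2 fold change against control was -0.63 ± 0.50 (SE) with *Dyrk1a* shRNA (95% interval -1.68 to 0.43, edgeR adjusted p = 0.759) and -0.93 ± 0.50 with harmine (-1.99 to 0.13, edgeR adjusted p = 0.928).

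Eomesodermin, the T-box relative of T-bet found above all in cytotoxic and memory cells (*Eomes*, chromosome 9, 118478212 to 118486132), was at 1.92 and 2.36 CPM with *Dyrk1a* shRNA, 1.49 and 3.43 CPM with harmine and 2.51 and 0.844 CPM in control. Its 3 groups overlapped, and the second control held a single read of it, with an interval of 0.0214 to 4.70 CPM. A difference in *Eomes* was not detectable at this depth: without the filter on low counts, the log2 fold change against control was 0.29 ± 0.89 (SE) with *Dyrk1a* shRNA and 0.49 ± 0.85 with harmine. RUNX3, which binds with T-bet at *Ifng* and silences *Il4* (*Runx3*, chromosome 4, 135120652 to 135177990), was far more abundant, at 355 and 311 CPM with *Dyrk1a* shRNA, 330 and 306 CPM with harmine and 240 and 317 CPM in control. Only the first control stood apart, below all other libraries. For *Runx3* the log2 fold change was 0.26 ± 0.19 with *Dyrk1a* shRNA (-0.15 to 0.67, edgeR adjusted p = 0.756) and 0.20 ± 0.19 with harmine (-0.22 to 0.61, edgeR adjusted p = 0.953). Its expected counts were not whole numbers in 6 of 6 libraries, as RSEM gives where reads are divided between genes.

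GATA3, the Th2 master regulator that all CD4+ T cells need at some level (*Gata3*, chromosome 2, 9857078 to 9890034), was at 39.8 and 31.0 CPM with *Dyrk1a* shRNA and at 32.5 and 37.0 CPM with harmine, against 40.2 and 44.7 CPM in control. As with *Tbx21*, all 4 treated libraries were below both controls, although the gap was narrow, 39.8 against 40.2 CPM at its closest. The log2 fold change was -0.26 ± 0.23 (SE) with *Dyrk1a* shRNA (-0.75 to 0.22, edgeR adjusted p = 0.780) and -0.28 ± 0.23 with harmine (-0.76 to 0.20, edgeR adjusted p = 0.938), nearly the same estimate against the same pair of controls. An annotated gene on the same strand (*9230102O04Rik*) shares 77 exonic bases with *Gata3*. Annotated genes on the opposite strand, absent from the counted genes, overlap exons of *Gata3*, *Ahr*, *Bcl6*, *Eomes*, *Maf* and *Rora*, and since strand was not recorded, reads of the 2 strands cannot be told apart.

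Of the Th17 factors, *Maf* was below control under both treatments and *Rora* and *Ahr* overlapped with it. c-MAF, an activator of *Il21* and *Il10* that serves Th17, Th2 and follicular helper cells (*Maf*, chromosome 8, 115682942 to 115707794), was at 53.6 and 56.6 CPM with *Dyrk1a* shRNA and at 62.3 and 56.8 CPM with harmine, against 70.3 and 71.7 CPM in control. The control replicates differed by a factor of only 1.02, and the nearest treated library was at 62.3 CPM. The log2 fold change was -0.36 ± 0.20 (SE) with *Dyrk1a* shRNA (-0.78 to 0.05, edgeR adjusted p = 0.680), the smallest adjusted p of any of the 8 factors, and -0.25 ± 0.19 with harmine (-0.66 to 0.15, edgeR adjusted p = 0.938). In bulk RNA such a difference cannot be told apart between fewer cells that express the gene and less transcript per cell.

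ROR alpha, a nuclear receptor that promotes the Th17 fate (*Rora*, chromosome 9, 68653786 to 69388246), was at 20.3 and 26.8 CPM with *Dyrk1a* shRNA, 23.5 and 18.7 CPM with harmine and 19.5 and 32.1 CPM in control. The second control was the highest library, and the groups overlapped. Its log2 fold change was -0.09 ± 0.30 (SE) with *Dyrk1a* shRNA and -0.26 ± 0.29 with harmine (edgeR adjusted p = 0.962 and 0.957). The aryl hydrocarbon receptor, a ligand-activated factor that supports interleukin 22 in Th17 cells (*Ahr*, chromosome 12, 35497974 to 35535038), was at 8.05 and 4.72 CPM with *Dyrk1a* shRNA, 6.86 and 6.60 CPM with harmine and 1.88 and 7.60 CPM in control. The first control, with 3 reads, was the lowest library by far, and the second control lay among the treated ones. For *Ahr* the log2 fold change was 0.50 ± 0.58 with *Dyrk1a* shRNA (-0.73 to 1.74, edgeR adjusted p = 0.853) and 0.61 ± 0.57 with harmine (-0.59 to 1.81, edgeR adjusted p = 0.941), the widest interval of the 8 factors in either comparison.

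BCL6, the repressor that defines follicular helper cells (*Bcl6*, chromosome 16, 23965052 to 23988852), was at 23.4 and 19.2 CPM with *Dyrk1a* shRNA, 16.1 and 18.7 CPM with harmine and 15.7 and 30.4 CPM in control. All treated libraries lay between the controls, which differed by a factor of 1.94. Its log2 fold change was -0.08 ± 0.32 (SE) with *Dyrk1a* shRNA and -0.36 ± 0.32 with harmine (edgeR adjusted p = 0.969 and 0.938). IRF4, induced by T cell receptor signals and needed by Th2, Th17 and follicular helper cells alike (*Irf4*, chromosome 13, 30749226 to 30766976), was at 713 and 766 CPM with *Dyrk1a* shRNA, 717 and 994 CPM with harmine and 544 and 1041 CPM in control. Here too all treated libraries lay between the controls, whose ratio was 1.91. For *Irf4* the log2 fold change was -0.10 ± 0.29 with *Dyrk1a* shRNA (-0.71 to 0.52, edgeR adjusted p = 0.952) and 0.11 ± 0.29 with harmine (-0.50 to 0.72, edgeR adjusted p = 0.978).

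Across the comparisons with control, none of the 8 factors passed an edgeR adjusted p of 0.05 in *Dyrk1a* shRNA against control, where 0.0189% of all tested genes did, and none in harmine against control, where 0.00943% did. None passed before adjustment either (7.69% and 5.3% of all genes did), and DESeq2 called 0 of them, whether adjusted (0.0283% of all genes in each comparison) or not (3.63% with *Dyrk1a* shRNA and 2.29% with harmine). In each of these comparisons 3 of 8 factors (*Tbx21*, *Gata3* and *Maf*) were lower without overlap of the groups and 0 were higher, against 16.9% of all genes lower with *Dyrk1a* shRNA and 15.9% lower with harmine (18.5% and 16.4% of all genes were higher). Both comparisons use the same pair of controls. All 4 treated libraries were below both controls for these 3 of 8 factors, against 7.85% of all genes, were above both for 0 of 8 (8.47% of all genes), and lay inside the control range for *Irf4* and *Bcl6*, 2 of 8, against 15.8% of all genes. The median log2 fold change of the factors was -0.09 with *Dyrk1a* shRNA (all genes -0.01, 6 of 8 factors below 0) and -0.26 with harmine (all genes -0.02, 5 of 8 below 0). With 2 libraries against 2, an exact permutation test of a single gene cannot give less than p = 0.333, so the calls rest on the spread shared across genes by edgeR.

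*Dyrk1a* shRNA and harmine were also set against each other. None of the 8 factors passed an edgeR adjusted p of 0.05 (0.00943% of all genes did), none passed before adjustment (5.73% did) and DESeq2 called 0, adjusted (0.0189%) or not (1.93%). *Tbx21* and *Bcl6* were higher with *Dyrk1a* shRNA without overlap (20.2% of all genes were) and *Maf* was lower (20.8% of all genes were). The log2 fold change of *Dyrk1a* shRNA over harmine was 0.30 for *Tbx21* (95% interval -0.68 to 1.29), 0.28 for *Bcl6* (-0.33 to 0.88) and -0.11 for *Maf* (-0.50 to 0.28). *Gata3* at 0.02 (-0.43 to 0.47) lay closest to 0, beside *Runx3* at 0.07 (-0.34 to 0.47). *Rora* at 0.17 (-0.39 to 0.73), *Irf4* at -0.21 (-0.82 to 0.40) and *Ahr* at -0.10 (-1.05 to 0.84) completed the set, and all 8 intervals included differences in either direction. The median over the 8 factors was 0.04.

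**Figure D2:**
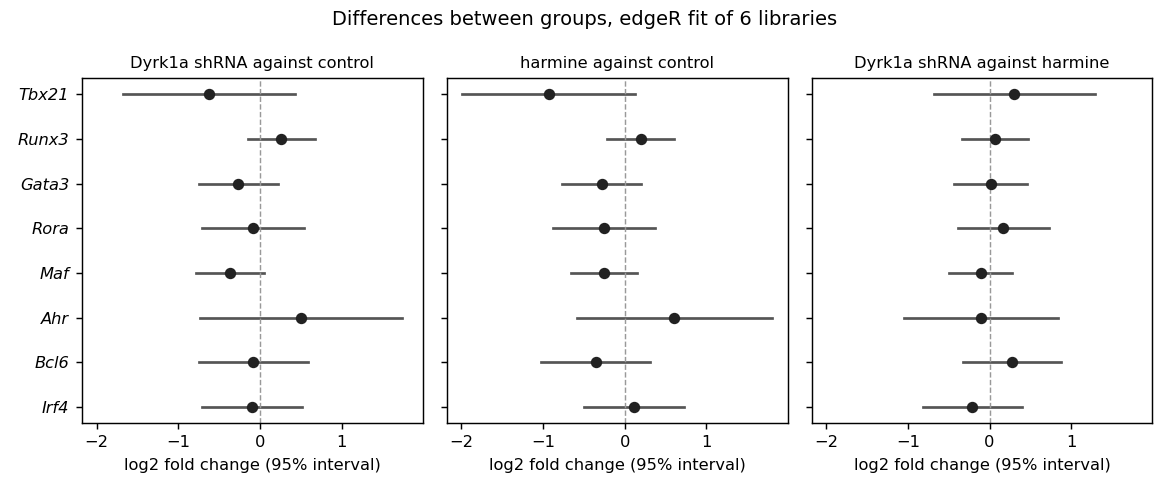
Log2 fold change (points) with its 95% interval (lines) of the 8 tested factors in the 3 comparisons, from 1 edgeR fit of 6 libraries. Every interval crosses 0, and *Tbx21* and *Ahr*, the factors with the fewest reads, have the widest ones (*Tbx21* with harmine -1.99 to 0.13).

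How far a factor could be compared with control depended on which control library was used. Without the first control, *Irf4* was at a log2 fold change of -0.50 with *Dyrk1a* shRNA and -0.29 with harmine, and without the second control at 0.45 and 0.65. The last of these had the smallest edgeR adjusted p of a factor under any setting tried, 0.0758. *Bcl6* turned in the same way, at -0.53 and -0.80 without the first control and 0.43 and 0.15 without the second, as did *Rora*, at -0.44 and -0.61 and then 0.29 and 0.12. *Ahr* moved most, at -0.29 and -0.18 without the first control and 1.71 and 1.81 without the second. *Runx3* was at 0.48 with *Dyrk1a* shRNA and 0.41 with harmine without the second control. Its lowest values with any 1 library left out were 0.063 and -0.00055. *Tbx21*, *Gata3* and *Maf*, whose treated libraries all lay below both controls, were by construction below 0 with either control, *Maf* at -0.39 and -0.28 without the first and -0.35 and -0.24 without the second. Where 1 control was left, its spread was assumed to be that of the other groups.

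**Figure D3:**
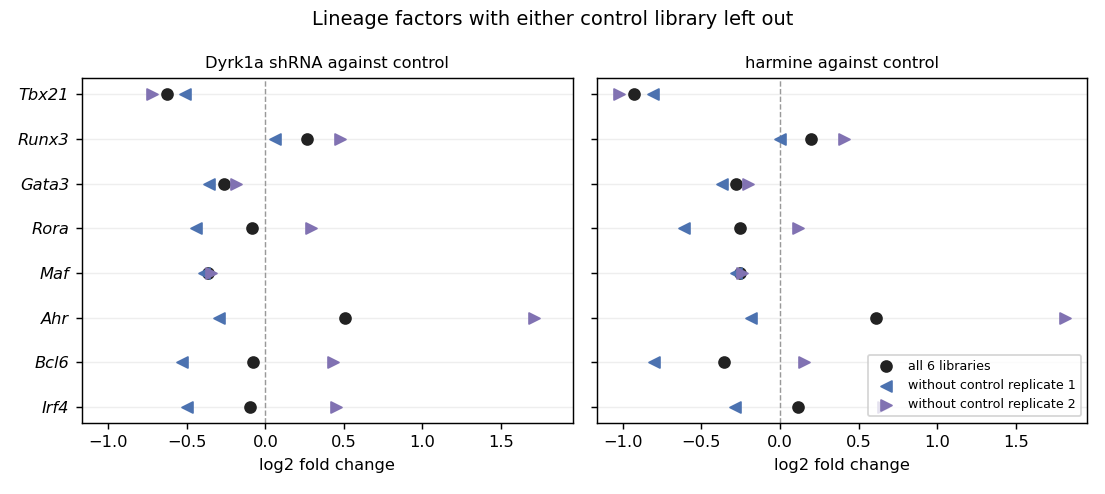
Log2 fold change of the 8 tested factors against control with all 6 libraries (circles) and with either control library left out (triangles), for *Dyrk1a* shRNA (left) and harmine (right). *Irf4*, *Bcl6*, *Rora* and *Ahr* lie on opposite sides of 0 depending on the control that is left, whereas *Tbx21*, *Gata3* and *Maf*, already below both controls in every treated library, lie below 0 throughout. *Runx3* also depends on the control, at 0.48 (*Dyrk1a* shRNA) and 0.41 (harmine) without the second control.

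Among the factors themselves, likeness across the 6 libraries varied widely. In log2 CPM, *Ahr* and *Runx3* had a Pearson correlation of 0.94, and *Tbx21* and *Maf* one of 0.79, while *Runx3* and *Maf* were at -0.60 (n = 6 libraries, a description only). The first control, which was lowest in *Ahr*, *Runx3* and *Irf4*, is one of those 6 points. The genes most like *Maf* by the same measure were *Dcp2* (0.990), *Mdc1* (0.983) and *Scoc* (0.979), those most like *Tbx21* were *Dnajc7*, *Rasl11a* and *Mtbp* (0.979 to 0.983), and those most like *Runx3* were *Mcm9*, *Prkch* and *Ptdss2* (0.989 to 0.991). Correlations over 0.9 were not confined to these genes. They were reached by 114 genes for *Maf*, 77 for *Tbx21* and 200 for *Runx3*, while 10607 genes were tested in all. How many would do so by chance with 6 libraries was not tested.

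The partners and antagonists of these factors, a list of 29 regulators such as *Runx1*, *Batf* and *Tcf7*, showed no shared direction. Of 27 tested, 16 were above 0 with *Dyrk1a* shRNA (median 0.07) and 15 with harmine (median 0.01), and none passed an edgeR adjusted p of 0.05. At an unadjusted p below 0.05, 2 were higher and 1 was lower with *Dyrk1a* shRNA (7.69% of all genes passed). With harmine 1 was higher and 2 were lower (5.3%). The clearest estimates were those of *Bhlhe40*, a factor that supports effector cytokines, and *Twist1*, known to restrain Th1 cytokines. *Bhlhe40* was at 399 and 304 CPM with *Dyrk1a* shRNA and 373 and 402 CPM with harmine, against 228 and 262 CPM in control. Its log2 fold change was 0.52 ± 0.20 (SE) and 0.66 ± 0.20 in the comparisons with control (edgeR adjusted p = 0.612 and 0.784). *Twist1* lay the other way, at 11.1 and 8.25 CPM with *Dyrk1a* shRNA and 6.86 and 10.3 CPM with harmine, against 15.7 and 24.5 CPM in control. Its log2 fold change was -1.04 ± 0.36 and -1.19 ± 0.36 (edgeR adjusted p = 0.612 and 0.784). *Nfil3*, *Nfe2l2* and *Zfpm1* (FOG-1, a partner that can block GATA3) had log2 fold changes of 0.49, 0.03 and 0.52 with *Dyrk1a* shRNA and 0.22, -0.49 and -0.06 with harmine. *Foxp3*, the factor of regulatory T cells, was at no more than 3.77 CPM in any library.

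Target genes of T-bet and the Th1 fate had estimates below 0 with harmine, none of them past the test. Of 11 tested genes of 15, all 11 were below 0 with harmine (median -0.63, all genes -0.02), 5 of them at an unadjusted p below 0.05 (5.3% of all genes) and 0 after edgeR adjustment. With *Dyrk1a* shRNA 8 of 11 were below 0 (median -0.16, 1 at an unadjusted p below 0.05, as were 7.69% of all genes), and for *Dyrk1a* shRNA over harmine 9 of 11 were above 0 (median 0.36, 3 at an unadjusted p below 0.05, as were 5.73% of all genes). Without the second control, 6 of 12 were below 0 with *Dyrk1a* shRNA (median -0.01), as were 6 of 11 with length and GC trends removed, and with harmine 10 of 12 were below 0 with either control left out. The cytotoxic gene *Prf1* (perforin) was at 30.7 and 25.4 CPM with *Dyrk1a* shRNA and 13.4 and 16.9 CPM with harmine, against 27.0 and 23.6 CPM in control. Perforin thus lay below control only in the harmine libraries, and its log2 fold change of *Dyrk1a* shRNA over harmine was 0.87 ± 0.25 (SE, edgeR adjusted p = 0.617). *Fasl* (log2 fold change -0.92 with *Dyrk1a* shRNA, -1.55 with harmine), the chemokine gene *Ccl5* (-1.09 and -1.22) and *Nkg7* (-0.49 and -0.99) were other low estimates, with edgeR adjusted p of 0.837 for *Fasl*, 0.903 for *Ccl5* and 0.928 for *Nkg7* with harmine. *Nkg7* was at 24.9 and 18.6 CPM with *Dyrk1a* shRNA and 17.9 and 12.7 CPM with harmine, against 44.6 and 13.5 CPM in control, so that only the first control stood above the treated libraries. *Ifng*, the signature cytokine, had 1 read in each of 2 libraries and none in the other 4.

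No target of the Th2 or Th17 fate passed an edgeR adjusted p of 0.05 with all 6 libraries and the filter. Of the Th2 cytokine genes, *Il5* was at 0 in all 6 libraries and *Il13* had at most 3 reads in any. *Il4* had 1 and 7 reads with *Dyrk1a* shRNA, 3 and 16 with harmine and 4 and 0 in control, too few in most libraries to be tested. Of the 4 Th2 genes tested (*Ccr4*, *Ccr8*, *Il24*, *Il10*) 4 were above 0 with *Dyrk1a* shRNA and 3 with harmine. Th17 genes were below 0 in 9 of 11 with *Dyrk1a* shRNA (median -0.28) and in 10 of 11 with harmine (median -0.46). Without the second control these numbers were 5 and 6 of 11, so the balance rests on that library. With all 6 libraries, 3 Th17 genes were lower and 1 was higher with harmine at an unadjusted p below 0.05 (5.3% of all genes). With *Dyrk1a* shRNA 0 were (7.69% of all genes). For *Dyrk1a* shRNA over harmine, 10 of 11 were above 0 (median 0.22, all genes -0.001), 2 of them at an unadjusted p below 0.05. The 1 gene below 0, *Il21* (-0.62), also had an unadjusted p below 0.05, as did 5.73% of all genes. *Il1r1*, the interleukin 1 receptor of Th17 cells, was at 11.5 and 8.55 CPM with *Dyrk1a* shRNA and 3.58 and 5.55 CPM with harmine, against 13.2 and 17.7 CPM in control. The difference with harmine, -1.72 ± 0.40 (SE, edgeR adjusted p = 0.570), passed only in the fit without a filter on low counts (-1.70, edgeR adjusted p = 0.0428). *Il21*, which serves both Th17 and follicular helper cells, lay the other way with harmine, at 55.6 and 55.1 CPM with *Dyrk1a* shRNA and 74.8 and 95.3 CPM with harmine, against 37.0 and 65.0 CPM in control. *Il17a* was at 9.20 and 4.72 CPM with *Dyrk1a* shRNA, 3.87 and 7.13 CPM with harmine and 5.02 and 16.9 CPM in control, so that no treated library was above the second control and 2 of 4 were below the first.

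Follicular helper genes, all 14 of them tested, split evenly with *Dyrk1a* shRNA (7 below 0, median -0.01) and had 5 below 0 with harmine (median 0.08). At an unadjusted p below 0.05, 3 were lower with *Dyrk1a* shRNA (7.69% of all genes passed in either direction). With harmine 2 were higher (5.3%). For *Dyrk1a* shRNA over harmine, 11 of 14 were below 0 (median -0.29, all genes -0.001). Of these, 5 had an unadjusted p below 0.05, as did 5.73% of all genes. Of the *Dyrk1a* shRNA values, 13 of 14 were below 0 without the first control and 6 of 14 without the second. *Sh2d1a*, which encodes the adaptor SAP that follicular helper cells need to bind B cells, was at 41.8 and 51.9 CPM with *Dyrk1a* shRNA and 82.6 and 78.2 CPM with harmine, against 77.2 and 69.2 CPM in control. It was thus lower in both *Dyrk1a* shRNA libraries than in the other 4, by a log2 fold change of -0.77 ± 0.19 (SE) against harmine and -0.64 ± 0.20 against control (edgeR adjusted p = 0.573 and 0.612). The costimulatory receptor gene *Icos* lay the same way, at 343 and 323 CPM with *Dyrk1a* shRNA, 419 and 476 CPM with harmine and 451 and 522 CPM in control. *Btla* was at -0.48 with *Dyrk1a* shRNA and -0.14 with harmine, and *Slamf6* at 0.05 and 0.58.

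Of 13 aryl hydrocarbon receptor targets only 3 could be tested, and *Cyp1a1*, the classic target, had 1 read in each of 2 libraries. *Tiparp*, a target that feeds back on the receptor, was at 118 and 114 CPM with *Dyrk1a* shRNA and 163 and 147 CPM with harmine, against 93.5 and 120 CPM in control. Both harmine libraries were above the other 4, with a log2 fold change of 0.54 ± 0.19 (SE) against control and -0.42 ± 0.18 for *Dyrk1a* shRNA over harmine (edgeR adjusted p = 0.903 and 0.831). *Il22* was at 14.2 and 3.24 CPM with *Dyrk1a* shRNA, 0.596 and 3.96 CPM with harmine and 6.90 and 14.3 CPM in control. Both harmine libraries were thus below both controls. *Il22* had few reads, with expected counts of 37.5 and 11.4 with *Dyrk1a* shRNA, 2.03 and 15 with harmine and 11 and 16.5 in control. Its log2 fold change was -0.30 ± 0.72 with *Dyrk1a* shRNA and -2.10 ± 0.84 with harmine (SE, edgeR adjusted p = 0.941 and 0.905), and *Entpd1* did not leave the range of 4.72 to 7.28 CPM. Markers of innate lymphoid cells, of which 6 were counted, summed to 6.13 to 7.96 CPM with *Dyrk1a* shRNA, 8.45 to 11.0 CPM with harmine and 11.3 to 13.5 CPM in control, and those of erythroid cells and platelets to 18.8 to 24.5 CPM with *Dyrk1a* shRNA, 19.3 to 19.4 CPM with harmine and 26.2 to 34.5 CPM in control. Both sums lay the same way as *Tbx21*, *Gata3* and *Maf*, but the single markers did not all follow. *Kit*, the only 1 of the 6 innate lymphoid markers tested, had log2 fold changes of 0.34 with *Dyrk1a* shRNA and 0.10 with harmine. Of 3 erythroid and platelet markers tested, 2 were below 0 and 1 was above in each comparison with control. The part of such cells in the differences of the 3 factors was not tested.

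**Figure D4:**
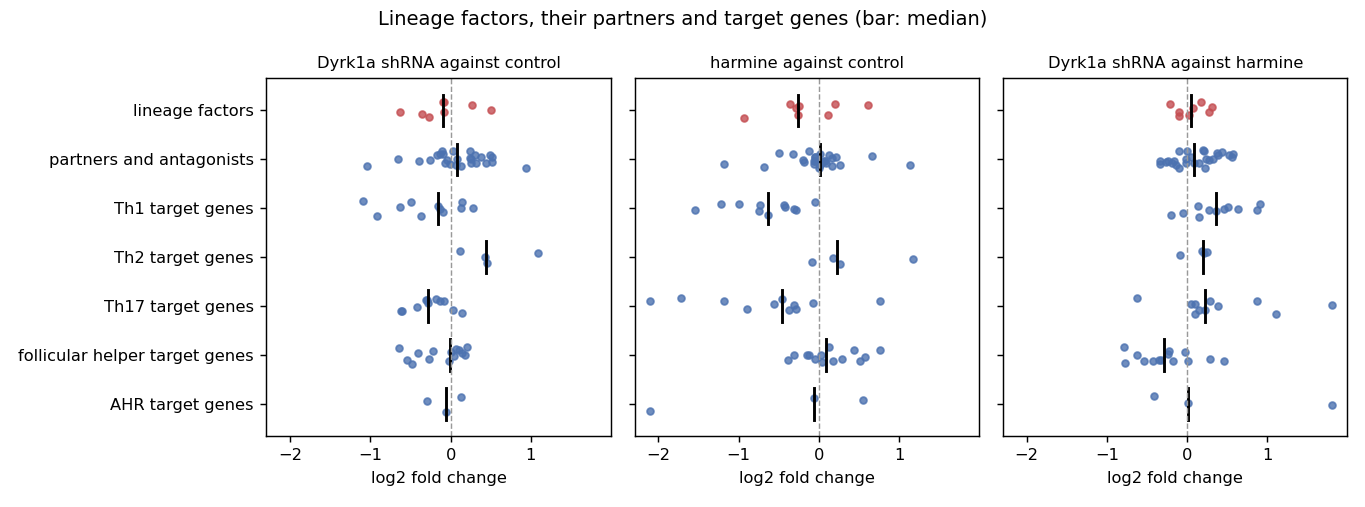
Log2 fold changes of the tested genes of each list in the 3 comparisons, 1 point per gene, with the median as a bar. The lineage factors (red) scatter around 0, whereas all 11 Th1 target genes lie below 0 with harmine (median -0.63) and 9 of 11 lie above 0 for *Dyrk1a* shRNA over harmine (median 0.36).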

How the data were processed

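Reads of the 6 libraries (2 per group) were aligned by the authors to mm10, with TopHat2 2.0.13 per the submitters' processing notes, and the authors deposited expected counts per gene from RSEM, not normalized. The RSEM version and annotation are not given in the sources used here. Total counts per library are in the report, and 0 columns belonged to no sample.

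Expected counts were rounded and analysed in R 4.3.3 by the robust quasi-likelihood test of edgeR 4.0.16, after TMM scaling and filterByExpr (minimum count 10), two-sided, with Benjamini-Hochberg adjustment over 10607 genes (threshold 0.05). All groups entered 1 fit. Log2 CPM used a prior count of 2, and intervals are at 95%. The fit was also run on simulated counts that had the same spread in all groups and changes only in genes above the median level. How it performs at the wider spread of these controls, or for sparse factors, was not tested. Symbols were matched to GENCODE M21 on GRCm38 (93.0%).

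The members, lists and tests were chosen with earlier results of these data known. Named are all members, *Dyrk1a*, up to 5 genes per list by smallest unadjusted p plus defining genes too low to test, and the 3 genes most like each of the 3 members with the smallest p. A few genes that the rule would include are not reported here. *Gzmb* and *Tcf7* were named after their values were seen. Alternatives were library size scaling, DESeq2 1.42.0 size factors and Wald test, no filter, a minimum count of 50, a replicate block, length and GC trends removed (splines, 4 degrees of freedom), each pair alone, thinning to the smallest library, sums of overlapping genes, and leaving out each library.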

Additional observations from a re-analysis of the deposited data

How the results depend on the processing

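Of 396 factor values under 17 alternatives, 370 kept their direction and 26 turned, and none passed the threshold. *Rora* with *Dyrk1a* shRNA turned to 0.086 with length and GC trends removed and 0.080 with the replicate block added. Between the treatments, thinning turned *Gata3* (-0.25), *Bcl6* (-0.026), *Maf* (0.075) and *Runx3* (-0.035), and removing the trends turned *Runx3* (-0.091, also with the block). The cause was not tested. With 1 library left out, values with *Dyrk1a* shRNA and with harmine ranged from -0.44 to 0.29 and -0.61 to 0.12 for *Rora*, -0.53 to 0.43 and -0.80 to 0.15 for *Bcl6*, -0.29 to 1.71 and -0.18 to 1.81 for *Ahr*, and -0.50 to 0.45 and -0.29 to 0.65 for *Irf4*. *Runx3* with harmine ranged from -0.00055 to 0.41. Between the treatments the ranges were -0.17 to 0.20 for *Gata3*, -0.056 to 0.35 for *Rora*, -0.51 to 0.26 for *Ahr*, -0.43 to 0.045 for *Irf4* and -0.031 to 0.16 for *Runx3*. Over all genes, 2 passed with *Dyrk1a* shRNA, 28 without the filter, 1 with trends removed (with or without the block), 5 with the pair alone and 1 to 439 with 1 library left out. With harmine 1 passed, 3 by DESeq2, 20 without the filter, 0 at a minimum count of 50, 0 with the pair alone, 2 after thinning, 0 with the replicate block, 6 with block and trends removed, and 4 to 291 with 1 library left out. Between the treatments 1 passed, 3 by library size, 2 by DESeq2, 22 without the filter, 0 with the block, 0 with trends removed, 4 with the pair alone and 0 to 5 with 1 left out. The highest counts, 439 and 291, came without the second control, and *Gzmb*, *Nkg7*, *Bhlhe40*, *Il21* and *Tcf7* (harmine) and *Tcf7* (*Dyrk1a* shRNA) were among them. Whether replicate numbers pair the libraries is not given: deviations of same-numbered libraries correlated at 0.240 between the treatments, 0.0196 between *Dyrk1a* shRNA and control and 0.120 between harmine and control, so no pairing was assumed. *Tbx21* and *Ahr* could not be tested at a minimum count of 50 or after thinning. Depth limits *Eomes*, *Tbx21* and *Ahr*.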
